A study of Mus musculus with 4 samples.

Results

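Retinoid and vitamin D receptors are nuclear receptors, transcription factors switched by small lipid-soluble ligands, and their expression was followed in mouse CD4+ T cells cultured under Th17 conditions with and without STAT3 or STAT5. The genes described are Rara and Rarg (retinoic acid receptors alpha and gamma), Rxra and Rxrb (retinoid X receptors alpha and beta), Vdr (vitamin D receptor) and Dhrs3 (a retinal reductase). They were taken by name, with every probe set that the platform annotation assigns to that gene alone, which gave 6 genes and 10 probe sets out of 18194 genes that have at least 1 such probe set. All 6 exceeded the expression filter used for 12440 compared genes, and of their probe sets only 1430497_at, for Rxra, lay under it on all 4 arrays. Dhrs3 exceeded it only through the 2 deficient arrays, so it had to differ between groups.

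The study asked how STAT3, which transmits IL-6 and IL-21 signals, and STAT5, which transmits IL-2 signals, regulate gene expression during Th17 differentiation. Naive CD4+ T cells (CD44-negative, CD62L-positive), taken from the lymph nodes and spleen of mice on the C57BL/6J strain, were activated for 72 h on plate-bound antibodies to CD3 together with antibodies to CD28, with IL-6 at 20 ng/ml, TGF-β at 2 ng/ml and an antibody to IL-4. The STAT3 wild-type culture came from stat3 fl/fl OT2 mice and the STAT3-deficient culture from CD4-Cre stat3 fl/fl OT2 mice, and both received an antibody to IL-2 at 10 µg/ml. The STAT5 wild-type culture came from stat5 fl/fl OT2 mice and the STAT5-deficient culture from CD4-Cre stat5 fl/fl OT2 mice, and both received IL-2 at 100 IU/ml. OT2 is a T cell receptor transgene carried by all groups, and CD4-Cre is a recombinase driven by the Cd4 promoter, which is active in developing T cells. The ages of the mice and the number of animals behind a culture are not stated in the sources used here. Each group was 1 array, so no difference has a replicate check, a standard error or a p-value and precision is limited by there being 4 arrays. A comparison of the cultures with IL-2 added and IL-2 neutralised also compares the stat5 fl/fl and stat3 fl/fl lines, and the agent and the line cannot be told apart.

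RARs bind all-trans retinoic acid, the hormone made from vitamin A, and VDR binds the active form of vitamin D. Both act on DNA as heterodimers with an RXR, so that RXR genes set a shared partner pool. In CD4+ T cells, retinoic acid acting through RARα favours Foxp3 induction by TGF-β over Th17 differentiation and induces gut-homing receptors, and VDR is induced on T cell activation. DHRS3 returns retinal to retinol, which limits retinoic acid formation, and its gene is itself induced by retinoic acid in many cells.

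Levels are the deposited values, taken as log2 per probe set, so a difference of 1 is 2-fold. A member or other gene counts as higher or lower from a 2-fold difference between 2 arrays onward. The median of all deposited values, 6.20, served as the background level, and values below it were not told apart from background. Where a gene had several probe sets, the one with the highest mean over the arrays stood for the gene. The other probe sets of the 6 members are given beside it, and those of other genes only where stated. Levels are compared between arrays for 1 probe set at a time and not between genes.

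The promoters of the 4 members with the largest difference in a deletion pair are shown with the sequence words searched in them. RefSeq windows on GRCm38.p6, from 250 bases before to 50 bases after a start site, were found for all 6 genes, 14 windows in all. Capitals mark, on either strand, the receptor hexamer AGGTCA with its variants GGGTCA as well as AGTTCA together with GGTTCA, which RAR, RXR and VDR dimers recognise in pairs, and TTCNNNGAA, the word bound by STAT dimers. The Dhrs3 window is that of the most upstream of its 3 start sites, those of Rxra and Rara belong to alternative start sites and were picked because they held the most matches, and Vdr has 1 window. The upstream Rxra window and 2 of the other 3 Rara windows held no match.
Dhrs3 chr4:144892577-144892876 (+): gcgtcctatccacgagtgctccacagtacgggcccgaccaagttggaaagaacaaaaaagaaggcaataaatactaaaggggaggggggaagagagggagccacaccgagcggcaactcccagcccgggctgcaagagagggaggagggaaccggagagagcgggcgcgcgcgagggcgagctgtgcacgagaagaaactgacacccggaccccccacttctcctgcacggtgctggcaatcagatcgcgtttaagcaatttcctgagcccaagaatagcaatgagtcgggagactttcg
Vdr chr15:97908247-97908546 (-): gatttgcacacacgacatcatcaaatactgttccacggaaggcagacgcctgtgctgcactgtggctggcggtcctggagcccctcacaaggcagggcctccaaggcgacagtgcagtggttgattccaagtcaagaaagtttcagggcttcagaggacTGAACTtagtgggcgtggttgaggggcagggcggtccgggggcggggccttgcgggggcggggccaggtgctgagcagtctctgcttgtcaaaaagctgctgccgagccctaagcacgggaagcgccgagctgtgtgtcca
Rxra chr2:27709042-27709341 (+): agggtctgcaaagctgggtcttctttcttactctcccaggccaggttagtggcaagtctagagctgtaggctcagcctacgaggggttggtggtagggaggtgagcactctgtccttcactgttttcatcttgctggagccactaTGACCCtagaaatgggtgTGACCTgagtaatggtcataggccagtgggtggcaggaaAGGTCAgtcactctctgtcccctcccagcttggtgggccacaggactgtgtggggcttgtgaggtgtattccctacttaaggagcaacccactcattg
Rara chr11:98939461-98939760 (+): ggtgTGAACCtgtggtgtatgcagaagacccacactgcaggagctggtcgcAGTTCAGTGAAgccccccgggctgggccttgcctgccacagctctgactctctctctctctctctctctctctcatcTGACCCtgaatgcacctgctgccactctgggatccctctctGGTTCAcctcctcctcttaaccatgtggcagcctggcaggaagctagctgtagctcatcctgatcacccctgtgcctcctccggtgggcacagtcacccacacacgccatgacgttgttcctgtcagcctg
The Dhrs3 window held neither word, and neither did its other 2 windows, which overlap it or each other. A hexamer was in 5 of the 14 windows, against 43.7% of all 32851 windows in the table. Those 5 were the Vdr window, with 1 match, the Rxra window shown, with 3, the Rara window shown, with 4, and 1 further window each of Rara and Rarg. TTCNNNGAA was in 1 of the 14, the Rara window shown, against 8.30% of all windows, and there it overlaps the hexamer AGTTCA. No window of these genes held 2 hexamers as a direct repeat with a spacing of 1 to 5 bases, an arrangement found in 0.70% of all windows. A match is a description of letters and does not show a bound site.

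Dhrs3, the retinal reductase gene, was higher on both deficient arrays than on either control. Its level was 4.36 on the STAT3 wild-type array, 6.55 on the STAT3-deficient array, 4.55 on the STAT5 wild-type array and 7.38 on the STAT5-deficient array. Both controls lay under the background level and both deficient arrays above it. The difference was 2.19 (4.56-fold) in the STAT3 pair and 2.83 (7.09-fold) in the STAT5 pair, and since both controls lay under the background level, these sizes are uncertain. A difference at least as large and upward was seen in 0.73% of compared genes in the STAT3 pair and 0.064% in the STAT5 pair. Dhrs3 was among 47 genes, 0.378% of those compared, that were 2-fold higher in both pairs, which share no array. It was also among 26 genes, 0.209%, for which the lower deficient array exceeded the higher wild-type array by 2-fold. For Dhrs3 that gap was 2.00, or 2.05 with arrays centred on their medians. As deposited it was exceeded by 2 genes, Cd70, a ligand of the TNF family (2.44), and Nkg7, a cytotoxic granule protein (2.07), and after centring by 1. This place rests on control levels under background. Dhrs3 was included among the members with its rise in the STAT5 comparison already known, so these values describe it and support nothing further. The controls, with IL-2 neutralised and with IL-2 added, differed by 0.19.

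**Figure D1:**
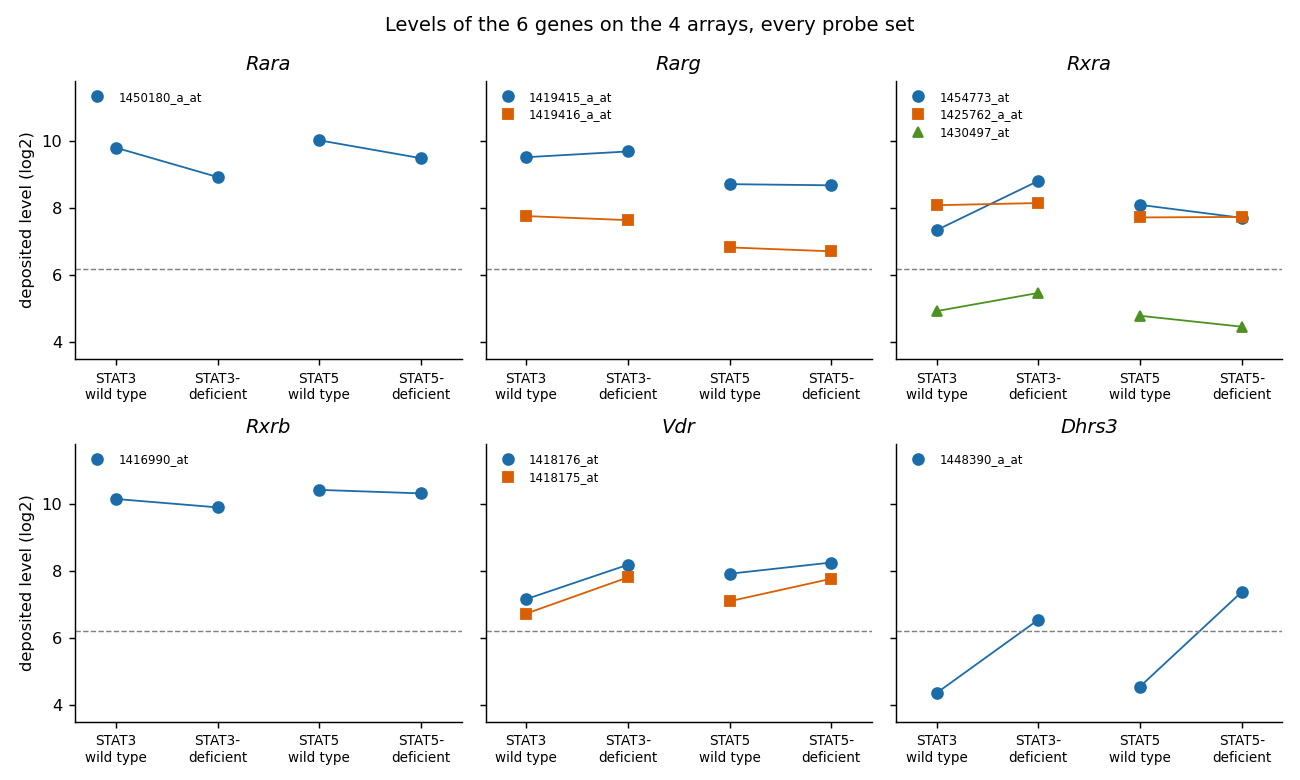
Deposited log2 level (vertical axis) of each of the 10 probe sets for the 6 genes on the 4 arrays (horizontal axis), 1 point per array, with lines joining the wild-type and deficient arrays of a pair and the dashed line at the background level of 6.20. Dhrs3 crosses the dashed line in both pairs, Vdr is higher on the deficient array of each pair, Rarg is lower on both arrays with IL-2 added, and the probe sets of Rxra do not run in parallel.

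Vdr, the vitamin D receptor gene, had its lowest level on the STAT3 wild-type array for both of its probe sets. Probe set 1418176_at stood at 7.16 on the STAT3 wild-type, 8.19 on the STAT3-deficient, 7.92 on the STAT5 wild-type and 8.25 on the STAT5-deficient array. Probe set 1418175_at stood at 6.73, 7.81, 7.10 and 7.77 on the same arrays. Both deficient arrays lay above both wild-type arrays for each probe set, as they did by any amount in 8.14% of compared genes. The gap was 0.27 for 1418176_at, and 0.49 with the probe sets averaged. In the STAT3 pair Vdr was higher by 1.03 (2.04-fold), and its other probe set gave 1.08, so it lies just past the 2-fold limit. In the STAT5 pair the differences were 0.33 and 0.67, within 2-fold. The STAT5 effect was 0.69 smaller than the STAT3 effect, or 0.41 smaller by the other probe set. The 2 controls differed by 0.76 and 0.37, with the higher level where IL-2 was added. That difference and the STAT3 effect share the STAT3 wild-type array.

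Rxra, the gene of the most widely shared heterodimer partner, gave a different result for each probe set. Probe set 1454773_at stood at 7.35 on the STAT3 wild-type, 8.82 on the STAT3-deficient, 8.10 on the STAT5 wild-type and 7.72 on the STAT5-deficient array. Probe set 1425762_a_at, whose mean level over the arrays differed from it by less than 0.1, stood at 8.09, 8.16, 7.73 and 7.74. The third, 1430497_at, stood at 4.93, 5.47, 4.79 and 4.47, under the background level throughout. In the STAT3 pair the differences were 1.47 (2.77-fold), 0.06 and 0.54 in that order, with a mean of 0.69, so the call of higher rests on 1 probe set. In the STAT5 pair they were -0.39, 0.01 and -0.33. Between the controls 1454773_at was 0.75 higher with IL-2 added, whereas the others were at -0.37 and -0.14. The SD between the probe sets' STAT3 differences was 0.71 for Rxra, against 0.04 for Vdr and 0.21 for Rarg. The parts of the transcript that the probe sets read are not known here.

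Rxrb, the second RXR gene described, varied least among the 6 genes taken by their main probe sets. Its level was 10.15 in STAT3 wild-type, 9.90 in STAT3-deficient, 10.42 in STAT5 wild-type and 10.32 in STAT5-deficient cells. The differences were -0.25 in the STAT3 pair, -0.10 in the STAT5 pair and 0.27 between controls. Differences of at least the size seen in the STAT3 pair, in either direction, occurred in 58.8% of compared genes. Rxrg, the remaining RXR gene, stood between 6.30 and 6.58, close to the background level, and differed by 0.01 and -0.26 in the STAT3 and STAT5 pairs.

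Rara, which encodes the retinoic acid receptor through which most effects on helper T cells are described, was lower on both deficient arrays than on either control, within 2-fold of them in each pair. Its single probe set stood at 9.81 in STAT3 wild-type, 8.93 in STAT3-deficient, 10.03 in STAT5 wild-type and 9.50 in STAT5-deficient cells. The difference was -0.88 (1.83-fold) in the STAT3 pair and -0.53 (1.45-fold) in the STAT5 pair. A downward difference at least as large occurred in 9.18% of compared genes in the STAT3 pair and 6.06% in the STAT5 pair. With arrays centred on their medians the values were -0.63 and -0.60. The controls differed by 0.22. Both deficient arrays lay below both wild-type arrays by any amount in 16.1% of compared genes, Rara among them.

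Rarg, the second retinoic acid receptor gene, was higher on both arrays with IL-2 neutralised than on both arrays with IL-2 added, for each of its probe sets. Probe set 1419415_a_at stood at 9.53 in STAT3 wild-type and 9.70 in STAT3-deficient cells, both with IL-2 neutralised, and at 8.72 in STAT5 wild-type and 8.69 in STAT5-deficient cells, both with IL-2 added. Probe set 1419416_a_at stood at 7.77, 7.65, 6.83 and 6.72 on the same arrays. The arrays of the 2 culture conditions were separated by at least 0.80 for the first and 0.81 for the second probe set. Arrays separated in that direction by any amount for 1369 genes, 11% of those compared, and by at least 0.80 for 0.50% of them. With arrays centred the gap was 0.61. Within the pairs Rarg differed by 0.17 and -0.03, or by -0.12 and -0.12 by the other probe set, so its direction in the STAT3 pair turned with the probe set. Rarb, the third receptor gene of this kind and a classical retinoic acid target, stayed under the background level throughout, between 4.36 and 5.46.

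In the STAT3 pair 3 of the 6 members were higher (Dhrs3, Rxra and Vdr) and 0 lower. Of all compared genes 2.85% were higher and 7.23% lower in that pair. With probe sets averaged Rxra fell within 2-fold, so 2 members were higher. In the STAT5 pair 1 of 6 was higher (Dhrs3) and 0 lower, against 1.86% higher and 1.74% lower among all genes. Between the controls 0 of 6 passed 2-fold in either direction, against 2.35% of all genes higher and 2.95% lower with IL-2 added. The median of the members was 0.60 in the STAT3 pair, -0.07 in the STAT5 pair and 0.25 between controls, beside -0.20, 0.06 and 0.06 for all compared genes. The median gene of the STAT3 pair thus lay below 0, and relative to it Rara differed by -0.68, Rxrb by -0.05, Rarg by 0.37, Vdr by 1.23, Rxra by 1.67 and Dhrs3 by 2.39. The members were chosen with earlier results of these arrays known, so their counts are a description of the 6 genes.

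**Figure D2:**
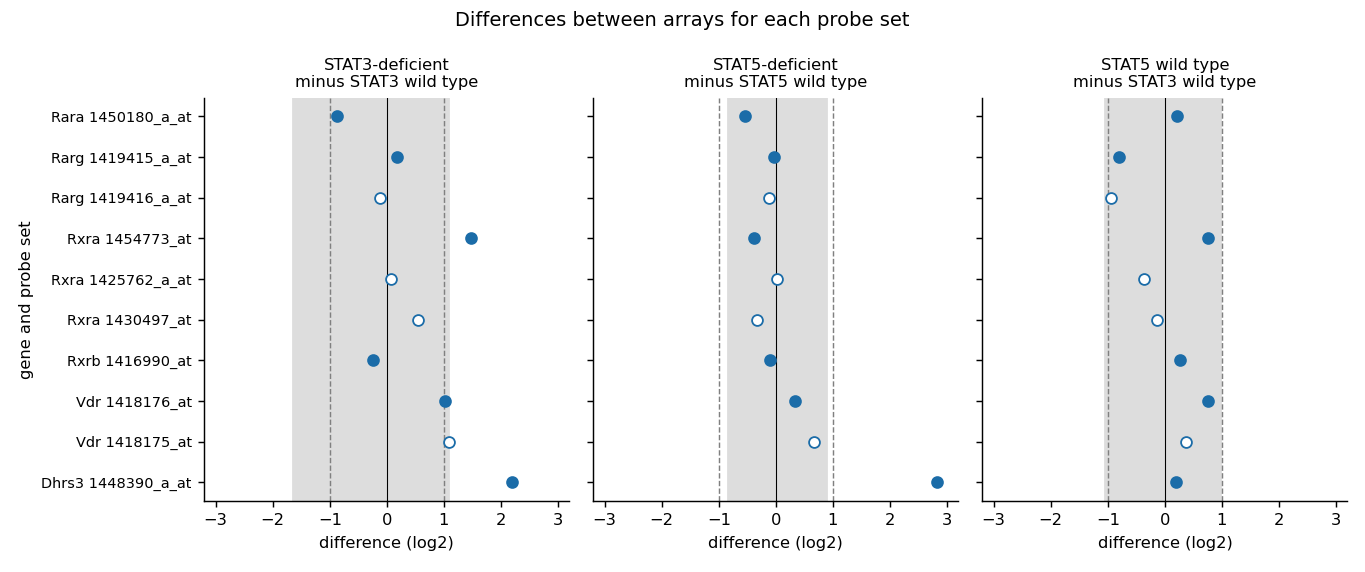
Difference in log2 level (horizontal axis) for each of the 10 probe sets (vertical axis) in the 3 comparisons, with filled points for the probe set that stands for the gene, open points for the others, dashed lines at 2-fold and a grey band that holds the central 95% of all compared genes. Dhrs3 lies outside the band in both deletion pairs at 2.19 and 2.83, the filled Rxra point lies outside it in the STAT3 pair at 1.47 while the open ones do not, and no point leaves it between the controls.

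**Figure D3:**
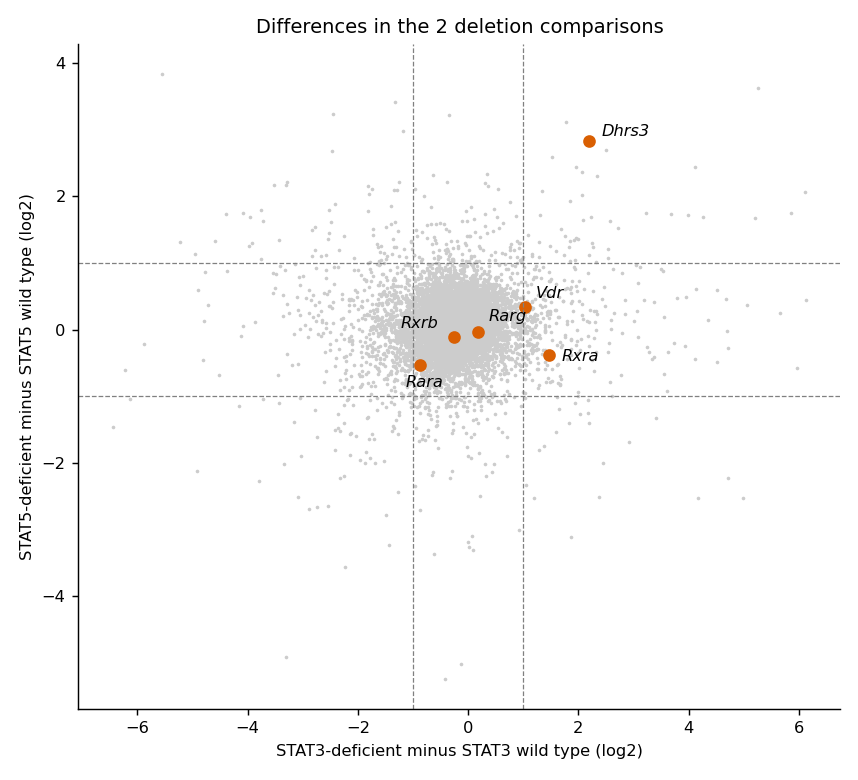
Difference of each compared gene in the STAT3 pair (horizontal axis, log2) and in the STAT5 pair (vertical axis, log2), with grey points for all 12440 genes, orange points for the 6 members and dashed lines at 2-fold. Dhrs3 stands alone among the members in the upper right field, Rxra and Vdr pass the limit on the horizontal axis, and Rara, Rarg and Rxrb lie within both limits.

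Genes whose levels over the 4 arrays were most like a member's were found by the Euclidean distance between profiles from which the mean had been subtracted, over 4 arrays. For Dhrs3 the nearest were Casp1, the inflammasome protease (distance 0.37), and Dclk1, a kinase (0.50), followed at over 1 by Kcnk10, a potassium channel, Zfpm1, a cofactor of GATA factors, and Ankrd33b. Casp1 stood at 5.64 and 7.42 in the STAT3 pair and at 5.39 and 8.51 in the STAT5 pair, with the deficient array second. For Vdr they were Lclat1, Atxn7l1, Abcd3, Dnajc15 and Rilpl2 (0.06 to 0.17), and for Rxra, by 1454773_at, 1110032F04Rik, Tmem38b, Cxcl12, Uap1 and Notch2 (0.10 to 0.18). Those nearest to Rarg were Pde4a, a cAMP phosphodiesterase (0.04), Tnfrsf4, which encodes the costimulatory receptor OX40 (0.06), Plvap, Acrbp and Il34 (0.17). Tnfrsf4 stood at 12.81 and 13.07 with IL-2 neutralised and at 12.05 and 12.00 with IL-2 added. Those nearest to Rara were C030006K11Rik, Acss1, Map1lc3b, an autophagosome protein, Rab26 and Grik3 (0.05 to 0.09). All 5 nearest genes lay within a distance of 0.2 for each of these members except Dhrs3. Several of these profiles rest on low levels. Plvap, Il34, Grik3 and Cxcl12 reached at most 6.53 on any array, near the background level, and fell under it on others. Casp1 and Ankrd33b lay under background on both controls, and Kcnk10 on the STAT3 wild-type array. Rxrb spanned less than 2-fold and was not compared in this way.

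Around the receptors, 95 other genes of retinoid and vitamin D signalling were listed by role, of which 83 had a probe set of their own and 58 passed the filter. From here on, the genes of a list called measured are those that passed the filter. In the STAT3 pair 5 of the 58 were higher and 2 lower, 12.1% in all against 10.1% of all compared genes. In the STAT5 pair 4 were higher and 1 lower, 8.62% against 3.6%, and between controls 4 were higher and 1 lower, 8.62% against 5.3%. The counts in the STAT3 pair depended on the scaling, with 10 higher and 1 lower after median centring and 9 and 2 after loess centring. With probe sets averaged, 0 were lower in the STAT5 pair and 2 were higher between controls. The medians of these genes were -0.12, 0.09 and -0.03. The lists were chosen with earlier results of these data known, so these shares and medians describe the genes and support nothing further.

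The genes for retinoic acid synthesis were near or under the background level. Of Aldh1a1, Aldh1a2, Aldh1a3 and Aldh8a1, which encode the retinal-oxidising dehydrogenases and a relative, only Aldh1a3 passed the filter, at 5.98 to 6.57. Aldh1a2, the dehydrogenase of retinoic acid-producing dendritic cells, stood between 4.85 and 5.70. Cyp26a1, a retinoic acid hydroxylase and a common indicator of retinoic acid signalling, lay between 5.44 and 5.83. Cyp26b1, the hydroxylase of T cells, stood at 7.24 in STAT3 wild-type, 6.71 in STAT3-deficient, 6.27 in STAT5 wild-type and 5.98 in STAT5-deficient cells. It was 0.97 lower in the STAT5 control than in the STAT3 control, within 2-fold. For Cyp26b1, as for Rarg, both arrays with IL-2 neutralised lay above both with IL-2 added, as in 11% of compared genes. The STAT5-deficient level of Cyp26b1, 5.98, was under background, and its STAT5 wild-type level, 6.27, just above it.

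Among 12 measured oxidoreductases of retinol and retinal, 2 were higher in the STAT3 pair, Dhrs3 and Adh1, with 0 lower. In the STAT5 pair 2 were higher, Dhrs3 and Adh4, with 0 lower. Among all compared genes 2.85% were higher and 7.23% lower in the STAT3 pair, and 1.86% and 1.74% in the STAT5 pair. Dhrs3, counted in both pairs, is a member chosen with its rise in the STAT5 comparison known. Adh1, an alcohol dehydrogenase that oxidises retinol, stood at 7.69 and 9.05 in the STAT3 pair (1.35) and at 6.15 and 5.84 in the STAT5 pair. Its controls differed by -1.54, so it was lower where IL-2 was added, where both arrays lay under the background level. Adh4 stood at 6.19, 6.95, 5.70 and 7.62, a difference of 0.76 in the STAT3 pair and 1.92 in the STAT5 pair, again with both controls under background and both deficient arrays above. Rdh10, the main retinol dehydrogenase of embryonic tissues, which forms a complex with DHRS3, stood at 7.45, 8.36, 8.11 and 8.16, and differed by 0.91 and 0.05. Rdh11 differed by 0.69 in the STAT3 pair, or by -0.14 by its other probe set, and by -0.33 in the STAT5 pair. It was 1.28 higher in the STAT5 than in the STAT3 control, by 1 of 2 probe sets, the other giving 0.67. By their main probe sets Rdh12, Rdh13, Rdh14, Dhrs4, Dhrs7, Adh5 and Adh7 differed by -0.50 to 0.37 in the deletion pairs, while other probe sets of Rdh14 and Dhrs4 reached -0.68 in the STAT3 pair and 0.73 in the STAT5 pair, in that order.

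Of 7 measured uptake and binding proteins, Stra6, the cell-surface retinol transporter, was 2.31 higher in the STAT3 pair. Its levels were 5.83 in STAT3 wild-type, 8.15 in STAT3-deficient, 7.05 in STAT5 wild-type and 7.33 in STAT5-deficient cells, so the STAT3 wild-type array was the low one, under background. Rbp4, the plasma retinol carrier, was 1.36 lower in the STAT3 pair, with levels of 6.30, just above background, and 4.94, under it. Crabp2, which delivers retinoic acid to RAR, stood at 8.72 and 9.70 in the STAT3 pair and at 9.20 and 10.26 in the STAT5 pair. It differed by 0.98, just within 2-fold, and 1.05, just past it, and like Dhrs3 was higher on both deficient arrays than on both controls. Fabp5, a carrier that delivers retinoic acid to PPARδ, stood at 12.46 on both arrays of the STAT3 pair and 13.21 on both of the STAT5 pair. Cd36, a fatty acid and lipoprotein receptor, stood at 7.32 on the STAT5 wild-type array and between 3.54 and 4.47 on the others, by 1 of 3 probe sets, and the set with the smallest STAT5 difference gave -0.07. Rbp2 differed by -0.44 and -0.15, and Ttr, the carrier of RBP4 in plasma, by -0.13 and 0.24, with its 4 probe sets running from -0.69 to 0.52 in the STAT3 pair.

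**Figure D4:**
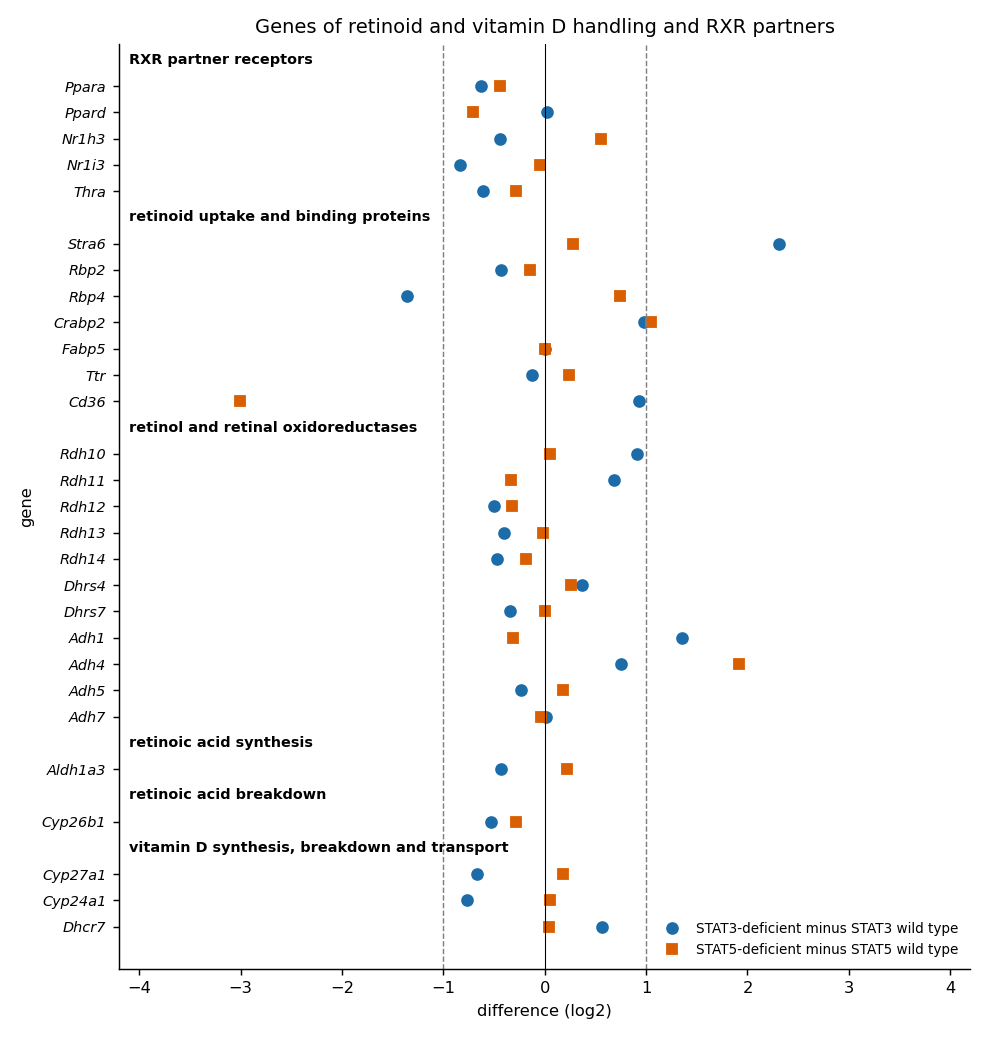
Difference in log2 level (horizontal axis) of the measured genes of retinoid and vitamin D handling and of RXR partner receptors (vertical axis, grouped by role, members left out), with blue circles for the STAT3 pair, orange squares for the STAT5 pair and dashed lines at 2-fold. Stra6, Adh1 and Rbp4 pass the limits in the STAT3 pair, and Adh4, Crabp2 and Cd36 in the STAT5 pair.

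Of 9 receptors that pair with RXR and had a probe set of their own, 5 passed the filter, and 0 of these 5 passed 2-fold in any comparison. In the STAT3 pair Nr1i3, the xenobiotic receptor CAR, differed by -0.84, Ppara by -0.62, Thra, a thyroid hormone receptor, by -0.61, Nr1h3, the oxysterol receptor LXRα, by -0.44 and Ppard by 0.02. In the STAT5 pair Ppard differed by -0.71, although its other probe set gave 0.37, and Nr1h3 by 0.55. The list's medians were -0.61 and -0.28, beside -0.20 and 0.06 for all genes. These medians rest partly on low levels, with Nr1i3 at 5.92 and Ppara at 5.87 on the STAT3-deficient array, under background. In the STAT3 pair the 3 probe sets of Ppara ran from -0.62 to -0.16. Of 16 measured coregulators, which include the coactivators Ncoa1 to Ncoa3 and the histone acetyltransferases Crebbp and Ep300, 0 passed 2-fold by their main probe sets. Other probe sets did, for Ncoa2 in the STAT3 pair (1.16) and the STAT5 pair (1.39), for Nrip1 in the STAT5 pair (1.03) and, between controls, for Med1 (1.20) and Crebbp (-1.27). By main probe sets Ncoa1 lay farthest in the STAT3 pair, at -0.83, and Tbl1x, a subunit of the corepressor complex, in the STAT5 pair, at 0.60. Kmt2e lay farthest between controls, at -0.61.

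Of 14 measured genes known to be induced by retinoic acid, 4 were higher in the STAT3 pair, Stra6, Dhrs3, Itga4 (1.63) and P2rx7 (1.15), and 1 was lower, Tgm2 (-3.08), while 9 stayed within 2-fold. Among all compared genes 2.85% were higher and 7.23% lower in that pair. Itga4 encodes the integrin α4 subunit of the gut-homing receptor, and its 5 probe sets ranged from -0.13 to 1.63. P2rx7, an ATP-gated channel, ranged from 0.19 to 1.99 over 3 probe sets. Tgm2, which encodes tissue transglutaminase, a widely used retinoic acid target, stood at 11.24 in STAT3 wild-type, 8.16 in STAT3-deficient, 12.60 in STAT5 wild-type and 12.09 in STAT5-deficient cells, and its 6 probe sets ranged from -3.29 to -0.65 in the STAT3 pair. In the STAT5 pair 3 were higher, Dhrs3, Tgif1 (1.07), a repressor of SMAD and retinoid signalling, and Crabp2, with 0 lower. Of all compared genes 1.86% were higher and 1.74% lower in that pair. Dhrs3, counted in both pairs, passed the filter only through the deficient arrays and was chosen with its rise in the STAT5 comparison known. Between controls Tgm2 was at 1.36, with its probe sets from -0.10 to 1.44. Stra6 was at 1.22, with its STAT3 wild-type level under background. Ccr9, the gut-homing chemokine receptor gene, was under the background level throughout.

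Of 12 genes known to be induced by vitamin D that had a probe set of their own, 6 passed the filter. Among those, 2 were higher in the STAT3 pair, Vdr itself and Tnfsf11, and 1 in the STAT5 pair, Tnfsf11, with 0 lower. Over all compared genes 2.85% were higher and 7.23% lower in the STAT3 pair, and 1.86% and 1.74% in the STAT5 pair. Tnfsf11, which encodes the osteoclast-activating cytokine RANKL and is also made by activated T cells, stood at 6.88 in STAT3 wild-type, 10.87 in STAT3-deficient, 6.99 in STAT5 wild-type and 8.71 in STAT5-deficient cells. It differed by 3.98 in the STAT3 pair and 1.72 in the STAT5 pair, and its other probe set by 3.89 and 1.82. Cyp24a1, the hydroxylase that inactivates vitamin D and the most used marker of VDR activity, stood between 5.66 and 6.43, near the background level. Only its STAT3 wild-type level exceeded that level. It differed by -0.77 and 0.05, whereas its other probe set gave 0.10 and -0.39, so it had no settled direction in either pair. Cyp27a1, a vitamin D hydroxylase, differed by -0.67 and 0.18, Dhcr7, which removes the vitamin D precursor, by 0.56 and 0.04, and Cyp27b1, the activating hydroxylase, lay under background on all arrays. Trpv6, Ccr10 and Slc34a2 differed by -0.53 to 0.52 in both pairs.

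Facts common to all results were as follows. Array medians lay between 6.10 (STAT3-deficient) and 6.34 (STAT3 wild type). Of compared genes 354 were higher and 900 lower in the STAT3 pair, or 521 and 577 with arrays centred, 231 and 217 in the STAT5 pair, and 292 and 367 between controls, or 594 and 213 with arrays centred. The targeted genes were low on the arrays titled as deficient, with Stat3 at -2.94 in the STAT3 pair and Stat5a and Stat5b at -5.01 and -5.24 in the STAT5 pair, although the genotype field of both deficient samples ends in the words for wild type. All 9 measured CD4 T cell markers were high on every array, with array medians of 11.84 to 12.18. Markers of B, myeloid and dendritic, CD8 T, NK and gamma delta T, stromal and erythroid cells had array medians of at most 6.28. Single markers lay above background on every array, such as Cd8b1 at 7.70 to 8.06 and Csf1r at 7.12 to 7.73. Of those past the filter 0 passed 2-fold in any comparison by their main probe sets. The summed level of the 12 myeloid and dendritic markers, cells that can express Vdr and Aldh1a2, ranged from 9.51 to 9.64 (log2) over the 4 arrays. Of these markers 7 did not exceed background on any array, so the sum holds much background signal and says little about the number of such cells. In RNA from whole cultures, fewer cells of a type and less RNA per cell cannot be told apart.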

How the data were processed

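RNA of 4 cultures was measured on Affymetrix expression arrays for mouse, 1 array each. The authors used Affymetrix Power Tools, per the submitters' processing notes. The sources used here give neither its version nor the summarisation, background correction, centring or log base. Deposited values run from 2.48 to 15.09 and were read as log2, and another base would change every fold. Groups came from sample titles.

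The annotation gives 34958 of the 45101 probe sets 1 gene, 932 several and 9211 none, and only the first kind was used. Entrez identifiers of all 6 members matched RefSeq (GRCm38.p6). Genes were compared where the highest of 4 values exceeded 6.20 (percentile 50 of all values). With 1 array per group, results are differences with no test, computed in Python 3.11.15 with pandas 2.3.3 and statsmodels 0.14.6. The code was run on simulated data with shifts set in advance, which checks the code and not the calls made here. Members and lists were chosen with earlier results of these data known. Genes named are the members, their nearest 5 genes by profile where a member spanned 2-fold, the measured genes of the receptor and metabolism lists, and those past 2-fold, or else farthest, in the other lists. A few others, such as the genes beside Dhrs3 in the gap between array pairs, were chosen after their values were seen.

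Alternatives were the mean of probe sets, leaving out those with suffix _s_at or _x_at, dropping the filter and raising it to percentile 75 (8.29). Others were centring arrays by median or by loess (span 0.4), and thresholds of 1.5-fold and 3-fold. Each member's other probe sets were added after seeing the data.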

Additional observations from a re-analysis of the deposited data

How the results depend on the processing

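The 6 members' differences in the 3 comparisons, and the gap between the STAT3 and STAT5 effects, were recomputed under 152 combinations of member, difference and alternative, and 146 stayed on the same side of 2-fold. The other 6 all concerned Rxra. Its STAT3 difference of 1.47 came to 0.69 with probe sets averaged and to 0.064 and 0.54 by its other probe sets, and its STAT5 effect minus its STAT3 effect, -1.86, to -0.92, -0.049 and -0.87. Many of the 146 could not have moved. Changing the filter leaves a member's difference as it is, and no member probe set carries the dropped suffixes, _s_at and _x_at. Averaging changes nothing for Dhrs3, Rara and Rxrb, with 1 probe set each, so for them only centring could move a value. Over the alternatives of the 152 combinations the STAT3 difference ranged from 2.19 to 2.44 for Dhrs3, from 1.03 to 1.27 for Vdr and from -0.88 to -0.63 for Rara. The STAT5 difference of Dhrs3 ranged from 2.75 to 2.83. The percentile 75 filter removed Vdr and Dhrs3, which have no value there, and so left 1 member higher in the STAT3 pair and 0 in the STAT5 pair. At 1.5-fold 1 member (Rara) was lower in the STAT3 pair, and 2 were higher and 1 lower between controls, and at 3-fold 1 member was higher in the STAT3 pair.

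Counts of all genes moved by over 1.5 times as follows. Without the filter 383 were higher in the STAT5 pair and 631 lower between controls. With the percentile 75 filter, which compares fewer genes, 223 were higher and 551 lower in the STAT3 pair, 126 and 128 in the STAT5 pair, and 151 lower between controls. Median centring gave 577 lower in the STAT3 pair and 594 higher and 213 lower between controls. At 1.5-fold the higher and lower counts were 704 and 2389 (STAT3 pair), 800 and 644 (STAT5 pair) and 1344 and 1240 (controls), and at 3-fold 179 and 343, 73 and 70, and 82 and 95. No paired analysis was possible because each group is 1 array and the labels give no replicate numbers. Without detection calls, signal over background is known only through the level of 6.20.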
